A study of Mus musculus with 8 samples.

Results

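The genes described here encode ion channels, gap junction proteins and the proteins that store, release and pump calcium in the mouse heart. They were chosen by gene symbol alone: potassium, sodium, calcium, pacemaker, chloride and TRP channels, ryanodine and inositol trisphosphate receptors, calcium pumps and exchangers, calsequestrins, calreticulin, the sulfonylurea receptors, and connexins of the Gja, Gjb and Gjc families. This gave 48 genes of the 6106 genes with their own symbol on the array, and 43 of the 48 had enough values to be analysed at both ages. The symbol rule also took Itprid2, whose product binds inositol trisphosphate receptors and is no channel. Whole hearts of C57BL/6 mice, a common inbred strain, were compared between the sexes at 2 and at 8 months of age. Equal numbers of hearts, 6 per sex and age, had been pooled into 4 RNA pools, so 1 pool stands for each sex at each age and the spread between animals is unknown. Each two-colour cDNA array set the female against the male pool of 1 age, on 4 technical arrays per age, with the female pool in Cy3 on replicates 1 and 3 and in Cy5 on replicates 2 and 4. No treatment or genotype other than sex and age is named in the labels. All values below are log2 ratios of female over male, so a value above 0 means more RNA in the female pool; they are not levels. A mean weights both dye orientations equally, and each SD is the spread of technical arrays.

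In heart muscle the action potential is shaped by sodium, calcium and potassium channels, and calcium entering through the surface membrane opens ryanodine receptors in the sarcoplasmic reticulum. The released calcium drives contraction, and it is then pumped back into the store or carried out of the cell by the sodium-calcium exchanger. Gap junctions pass the current from cell to cell. The heart also holds endothelial cells, smooth muscle, fibroblasts and leukocytes, and several genes of these families are better known from those cells than from the muscle cell. Kcna3 and Kcnn4 are the main examples: their channels set the membrane potential of T lymphocytes and so sustain calcium entry after activation.

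The promoters of these genes are shown because both stood apart from the other members at 2 months. Each sequence is the 250 bases before the RefSeq start of transcription (GRCm38.p6, plus strand), Kcna3 at chr3:107035912-107036161 and Kcnn4 at chr7:24370013-24370262. In Kcna3 the capitals mark GGGCGG, a GC box, and in Kcnn4 they mark TGTGGT, the core letters bound by RUNX factors, or its reverse complement ACCACA.
Kcna3: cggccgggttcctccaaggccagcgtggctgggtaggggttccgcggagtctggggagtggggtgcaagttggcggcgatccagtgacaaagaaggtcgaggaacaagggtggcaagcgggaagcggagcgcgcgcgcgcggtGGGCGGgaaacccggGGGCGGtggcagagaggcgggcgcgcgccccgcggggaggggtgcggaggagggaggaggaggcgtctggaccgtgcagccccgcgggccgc
Kcnn4: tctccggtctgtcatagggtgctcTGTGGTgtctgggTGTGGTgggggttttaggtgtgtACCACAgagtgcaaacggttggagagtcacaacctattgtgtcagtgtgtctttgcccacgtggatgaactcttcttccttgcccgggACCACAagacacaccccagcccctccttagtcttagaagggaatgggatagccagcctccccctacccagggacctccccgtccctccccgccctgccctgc
The Kcna3 window had a GC content of 74.4% and the Kcnn4 window 58.8%, against a median of 52.4% over 32851 promoter windows of the same length. Both strands were searched. The Kcna3 window held GGGCGG 2 times, and 16.7% of all windows held it at least 2 times. TGTGGT stood 4 times in the Kcnn4 window and not in that of Kcna3; 14% of all windows held it at least once, and 10 windows (0.0304%) at least 4 times. This motif was picked after the windows had been read, so its count is a description only. Neither window held TGANTCA, the site bound by Fos and Jun factors, which 6.75% of all windows held. The GATA site AGATAA was in neither window and in 9.99% of all. The box named for its letters, TATAAA, was likewise in neither window and in 12.4% of all. The windows of the 2 genes therefore shared no searched motif but the GC box, which Kcnn4 held 1 time. Other transcript models of Kcnn4 start upstream of the window printed here.

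Replicates 1 and 2 at 8 months carried a trend along the feature number, the position of a probe in the array's order. Their running median varied by 0.51 and 0.82 (SD, log2), against 0.032 to 0.071 on the other arrays, so 8-month means are given from all arrays and from replicates 3 and 4 alone. The median array SD of the members was 0.167 at 2 months and 0.595 at 8 months, close to the 0.182 and 0.581 of all tested rows. Of the 43 members, 5 had opposite signs in the 2 dye orientations on all 4 arrays at 2 months (11.6%; 25.2% of all rows). On replicates 3 and 4 at 8 months, 20 of 42 members did so (47.6%; 51.7% of all rows). With 1 array per orientation, that count does not separate the dye from array noise.

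Most ion channel and calcium handling genes had similar RNA amounts in the female and male pools. At 2 months 41 of the 43 members (95.3%), and at 8 months 42 (97.7%), lay within 1.5-fold (0.58 on the log2 scale). So did 94.98% and 93.9% of all tested rows, so this closeness is not particular to these genes. The median member was at -0.013 at 2 months and -0.108 at 8 months, beside -0.016 and -0.032 over all 7812 tested rows; replicates 3 and 4 alone gave -0.043 over 42 members and -0.002 over all rows. At 2 months 20 members lay above 0, and at 8 months 17. The 2 exceptions at 2 months were the lymphocyte potassium channel genes Kcna3 and Kcnn4, both higher in females.

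A member was listed at an age when its mean reached 1.5-fold with 1 sign on every array of that age. At 2 months 2 members were listed as higher in the female pool (2.41% of all rows were) and 0 as lower (1.77% of all rows). At 8 months 1 member, Kcnn4, was listed as higher (1.68% of all rows) and 0 as lower (1.31%). With replicates 3 and 4 alone the member listed as higher was Gjb5 (2.08% of all rows), and 0 were lower (1.26%). Apart from size, 12 members were above 0 on all 2-month arrays and 8 below, where 17.7% and 18.1% of all rows were. At 8 months 3 were above 0 on all arrays and 4 below, with 5.79% and 4.85% of all rows. Over all 8 arrays Kcna3 and Kcnn4 stayed above 0 (1.8% of all rows) and Cacna1g stayed below (1.56%). How far these counts among 43 members stood from the share of all rows was not tested.

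The sexes were compared over both ages with limma on the 2 age means, so that n was 2 pairs of pools. Each SE over both ages is limma's moderated SE, which borrows from the spread of all tested rows. It is not the SE of the 2 age means of that gene alone, so it does not show how closely the ages agree. Of the members 0 passed an adjusted p of 0.05, as 7 of 7812 rows did (0.0896%). At an unadjusted p below 0.05 there were 6 members, and 10.4% of all rows: Kcnn4 and Kcna3 higher in females, and Kcnk3, Atp2a1, Hcn2 and Gja4 lower. The smallest adjusted p of any member was 0.193 by limma, for Kcnn4. All values that follow are therefore descriptions of these pools.

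**Figure D1:**
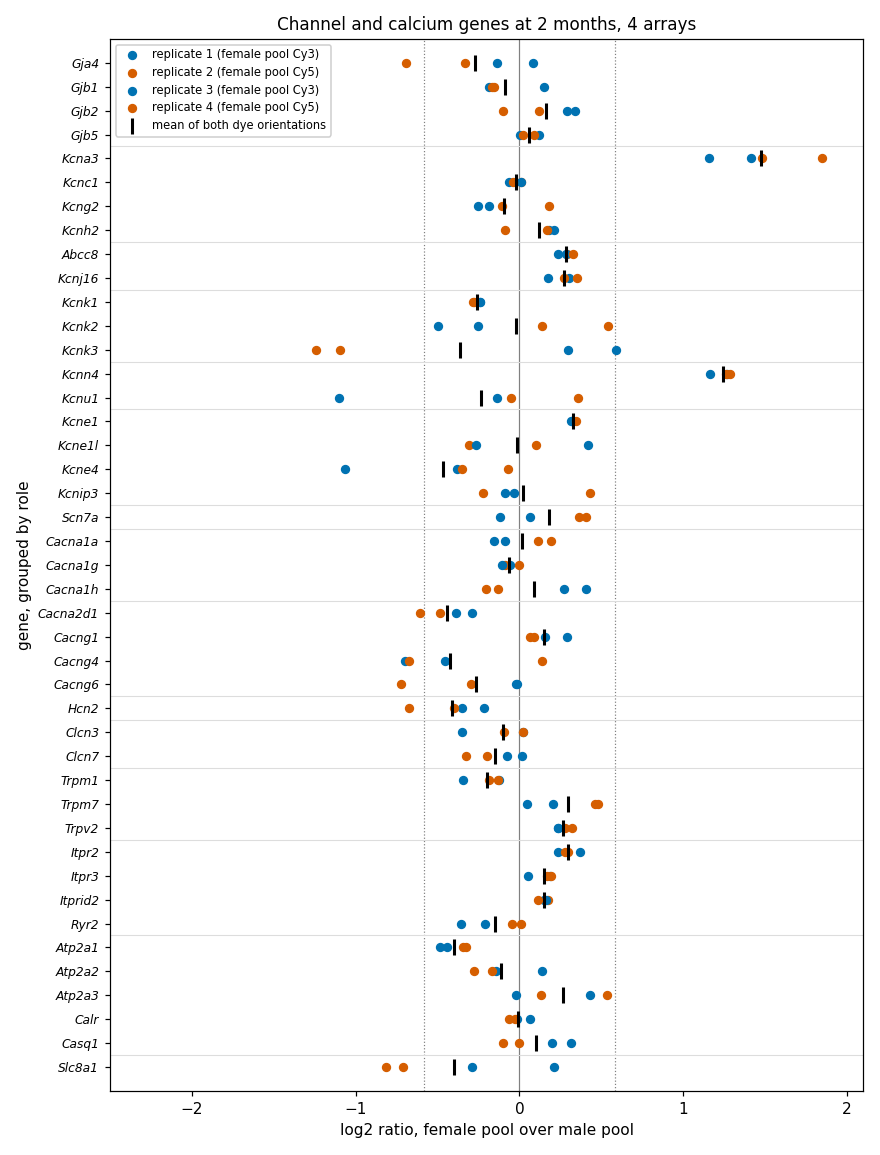
Log2 ratio of female over male for each analysed member at 2 months. Points are the 4 arrays by dye orientation of the female pool, bars mark the mean, and dotted lines mark 1.5-fold; all 4 arrays of Kcna3 and Kcnn4 lie between 1.15 and 1.85, beyond those lines.

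Kcna3 encodes a voltage-gated potassium channel of T lymphocytes. Its ratios at 2 months were 1.42, 1.85, 1.15 and 1.48 on replicates 1 to 4, and at 8 months 0.41, 0.84, 0.27 and 0.49. All arrays were on the female side, and the 2-month arrays lay wholly above the 8-month ones. The mean was 1.47 ± 0.29 at 2 months (SD, n = 4 arrays), or 2.78-fold, and 0.50 ± 0.24 at 8 months, or 1.42-fold. Replicates 3 and 4 alone gave 0.38 at 8 months. The 2 probes of the gene were alike at 2 months, at 1.467 and 1.482, and were at 0.395 and 0.610 at 8 months. Over both ages the mean was 0.99 ± 0.24 (SE, n = 2 pool pairs; limma adjusted p = 0.316).

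Kcnn4 encodes the intermediate-conductance calcium-activated potassium channel, which opens when calcium rises in lymphocytes and is also the calcium-gated channel of red cells. Its 2-month ratios were 1.27, 1.29, 1.17 and 1.26, and its 8-month ratios 0.47, 1.503, 0.93 and 0.13. All arrays were again on the female side, but the 8-month arrays spanned a wide range and replicate 2 exceeded every 2-month value. The mean was 1.24 ± 0.05 at 2 months (SD, n = 4 arrays), or 2.37-fold, and 0.76 ± 0.60 at 8 months, or 1.69-fold. Replicates 3 and 4 gave 0.53 at 8 months, below the 1.5-fold line, and removing the trend along the feature number gave 0.58. Without replicate 2, one of the arrays that carry the trend, Kcnn4 was no longer listed at 8 months. Over both ages the mean was 1.00 ± 0.16 (SE, n = 2 pool pairs; limma adjusted p = 0.193).

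Marker genes of T cells and thymocytes were higher in the female pool together with these channels at 2 months. There all 9 measured genes of a list of 15 were listed as higher in the female pool, from 0.692 to 4.483, with a median of 2.46 and array medians of 1.92 to 3.146. At 8 months 7 of the 9 were above 0 and the median was 0.186, with array medians of -0.154 to 0.322. Replicates 3 and 4 gave 0.282. Rag1 was still listed as higher at 8 months (1.68% of all rows), at 1.15, or 1.14 on replicates 3 and 4. Over the 8-month arrays Kcnn4 was highest on replicate 2, which carries the trend and where the marker median was 0.148. It was lowest on replicate 4, where the marker median was 0.322. These arrays repeat the same pools, so the differences among them are technical and cannot tell whether Kcnn4 goes with the markers. Red cell markers (3 genes) had a median of 0.182 at 2 months and 0.714 at 8 months, with array medians of 0.630 to 0.901 at 8 months, and 0.844 on replicates 3 and 4. Fat and lung markers were also higher at 2 months, with medians of 1.711 (5 genes) and 1.418 (4 genes). At 8 months the medians were 0.257 and 0.155, or 0.196 and 0.211 on replicates 3 and 4. The lung markers differed among themselves at 8 months: Sftpc, a surfactant protein, was at 3.12 and Cyp2f2 at -0.22, or 3.89 and -0.63 on replicates 3 and 4. The files hold ratios and no levels, so the amount of any marker in a pool is unknown. The part of these markers in the ratios of Kcna3 and Kcnn4 was not tested, and in pooled tissue more cells of a type and more RNA per cell cannot be told apart. Cardiomyocyte markers lay near 0 at 2 months (median 0.007, 8 genes) and at -0.270 at 8 months, or -0.088 on replicates 3 and 4. Their array medians took both signs at each age, from -0.177 to 0.167 at 2 months and from -0.819 to 0.460 at 8 months.

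**Figure D2:**
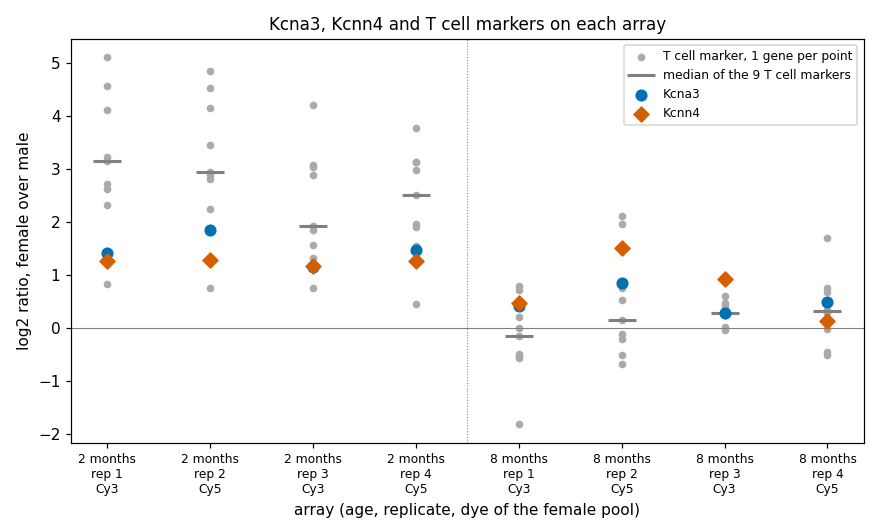
Log2 ratios of female over male on each of the 8 arrays for Kcna3, Kcnn4 and the measured T cell and thymocyte markers. The 2 channel genes and the marker median are all higher in the female pool at 2 months (marker medians 1.92 to 3.146). At 8 months the marker medians are -0.154 to 0.322, Kcna3 is below its 2-month values, and Kcnn4 spans 0.13 to 1.503.

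The other voltage-gated potassium channel genes did not share this pattern. Kcnh2, the channel of the rapid delayed rectifier current that ends the cardiac action potential, was at 0.12 ± 0.14 at 2 months and 0.01 ± 0.75 at 8 months, or -0.11 on replicates 3 and 4. Its ratios at 2 months were 0.21, -0.09, 0.18 and 0.17, so the arrays fell on both sides of 0. Kcng2, a silent subunit that modifies other potassium channels and is known from heart, was at -0.09 ± 0.19 and -0.21 ± 0.42, or 0.12 on replicates 3 and 4 at 8 months. Kcnc1, a fast delayed rectifier of neurons, was tightly at 0 at 2 months, with -0.06, 0.01, 0.01 and -0.04. At 8 months its ratios were 0.32, 0.75, 1.01 and -0.89, a spread that covers both signs, with a mean of 0.06 on replicates 3 and 4.

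Kcnq1 and Kcne1 together form the channel of the slow delayed rectifier current. Kcne1, its accessory subunit, had 0.32, 0.32, 0.31 and 0.35 at 2 months, a mean of 0.33 ± 0.01, and the narrowest array spread of any member. Its 8-month arrays were -0.53, 1.01, 0.07 and 0.14, with a mean of 0.17 ± 0.64 and 0.10 on replicates 3 and 4. The small female excess at 2 months was thus the same on every array, while the 8-month arrays overlapped it and 0. Kcnq1, the pore subunit, was not analysed, since it had 3 values at 2 months (-0.41, 0.24 and 0.25) and 2 at 8 months (1.55 and 1.10). Both of its 8-month values were on the female side and both lay above those at 2 months.

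The accessory subunit gene Kcne4, which dampens several potassium channels, was at -0.47 ± 0.42 at 2 months, from -1.06, -0.07, -0.38 and -0.35. Replicate 1 was the lowest array. At 8 months Kcne4 was at -0.01 ± 0.56, or -0.28 on replicates 3 and 4. Kcnip3, a calcium-binding protein of channels and transcription, was at 0.02 ± 0.28 and -0.31 ± 1.05, with -0.37 on replicates 3 and 4. The X-linked Kcne1l was at -0.01 ± 0.34 and 0.06 ± 0.53 (0.22 on replicates 3 and 4), with arrays on both sides of 0 at each age.

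Inward rectifier and background potassium channel genes showed small differences at 2 months. Abcc8, a sulfonylurea receptor of channels closed by ATP, had 0.24, 0.29, 0.28 and 0.33 at 2 months, a mean of 0.29 ± 0.04, and 0.71, -0.24, 0.22 and 0.07 at 8 months, a mean of 0.19 ± 0.40 (0.15 on replicates 3 and 4). Kcnj16, an inward rectifier subunit, was at 0.27 ± 0.07 and -0.24 ± 1.20, with -0.03 on replicates 3 and 4. Kcnk1, a two-pore background channel, was on the male side, with -0.24, -0.28, -0.24 and -0.28 at 2 months. Its mean there was -0.26 ± 0.02, and at 8 months 0.06 ± 0.53 (0.04 on replicates 3 and 4). For these 3 genes the 2-month arrays shared 1 sign with little spread, and the 8-month arrays took both signs.

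Kcnk3 encodes an acid-sensitive two-pore channel of heart and pulmonary vessels, and its ratio depended on the dye. Its 2-month ratios were 0.29 and 0.59 with the female pool in Cy3 and -1.09 and -1.24 with it in Cy5. The mean of both orientations was -0.36 ± 0.94 at 2 months and -0.42 ± 0.70 at 8 months, or -0.18 on replicates 3 and 4. One probe was at -0.746 and -0.806 at the 2 ages and the other at 0.019 and -0.040, so the probes disagreed. Over both ages Kcnk3 was at -0.39 ± 0.12 (SE, n = 2 pool pairs; limma adjusted p = 0.385). Kcnk2, a stretch-sensitive two-pore channel, also changed sign with the dye at 2 months, at -0.02 ± 0.46, and was at -0.42 ± 1.43 at 8 months (-0.25 on replicates 3 and 4). Kcnu1, a potassium channel known from sperm, was at -0.23 ± 0.62 and at -0.07 ± 0.63 (n = 3 arrays), with -0.38 on replicates 3 and 4.

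Hcn2, a pacemaker channel of the conduction system that also occurs in ventricle, was lower in the female pool on 7 of 8 arrays. Its ratios were -0.35, -0.68, -0.22 and -0.40 at 2 months and -0.13, -0.77, 0.02 and -0.22 at 8 months. The ages overlapped, with the lowest value on replicate 2 at each. The mean was -0.41 ± 0.19 at 2 months and -0.28 ± 0.35 at 8 months, or -0.10 on replicates 3 and 4. Over both ages it was at -0.34 ± 0.13 (SE, n = 2 pool pairs; limma adjusted p = 0.454). Of the sodium channel genes Scn7a, a sodium-sensing channel, was analysed, at 0.18 ± 0.25 and -0.11 ± 0.73, with -0.05 on replicates 3 and 4.

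The calcium channel genes with pore subunits on the array were those of T-type and P/Q-type channels. Cacna1g, a T-type channel of pacemaker cells, was below 0 on every array: -0.06, -0.09, -0.10 and -0.00 at 2 months and -0.75, -0.33, -0.11 and -0.05 at 8 months. The ratios were small except on the arrays with the trend, and the mean was -0.06 ± 0.05 at 2 months and -0.31 ± 0.32 at 8 months, or -0.08 on replicates 3 and 4. Cacna1h, the other T-type channel, was at 0.09 ± 0.30 and -0.15 ± 0.32, with -0.33 on replicates 3 and 4. Cacna1a, the P/Q-type channel of nerve endings, was at 0.02 ± 0.16 and -0.30 ± 0.38, with -0.02 on replicates 3 and 4. The signs of Cacna1h and Cacna1a followed the dye at 2 months.

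Cacna2d1, the auxiliary subunit that brings L-type channels of the heart to the surface, was lower in the female pool at 2 months. Its ratios were -0.29, -0.48, -0.39 and -0.61 at 2 months and -0.38, 0.50, -0.14 and 0.12 at 8 months. All 2-month arrays lay below 0 and the 8-month arrays took both signs, with replicate 1 inside the 2-month range. The mean was -0.44 ± 0.14 at 2 months, which is short of 1.5-fold, and 0.03 ± 0.37 at 8 months, or -0.01 on replicates 3 and 4. Of the gamma subunits, Cacng6 was at -0.26 ± 0.33 and -0.32 ± 0.64, with -0.52 on replicates 3 and 4. Cacng1, the subunit of skeletal muscle, was at 0.15 ± 0.10 and -0.29 ± 0.64, with -0.07 on replicates 3 and 4. Cacng4 was at -0.42 ± 0.39 and at 0.36 ± 1.20 (n = 3 arrays, without replicate 4).

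Ryr2, the ryanodine receptor that releases calcium in heart muscle, was lower in the female pool at 8 months on every array. Its ratios were -0.21, -0.05, -0.36 and 0.01 at 2 months and -0.46, -0.48, -0.37 and -0.25 at 8 months. The 2 ages overlapped. The 8-month arrays were close to each other as given, but their SD was 0.33 with the trend along the feature number removed. The mean was -0.15 ± 0.17 at 2 months and -0.39 ± 0.10 at 8 months, or -0.31 on replicates 3 and 4. Over both ages Ryr2 was at -0.27 ± 0.13 (SE, n = 2 pool pairs; limma adjusted p = 0.575). The ratio at 8 months is below 1.5-fold. Cardiomyocyte markers in the same pools had a median of -0.270 at 8 months and -0.088 on replicates 3 and 4. The array medians of these markers at 8 months were -0.522, -0.419, 0.460 and -0.819 on replicates 1 to 4. Replicates 3 and 4 thus had opposite signs, and the direction of the marker median is not settled. The part of these markers in the Ryr2 ratio was not tested.

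The inositol trisphosphate receptors were on the female side at 2 months. Itpr2, the main type in cardiac muscle cells, had 0.37, 0.30, 0.24 and 0.28 at 2 months, a mean of 0.29 ± 0.05. It was at -0.13 ± 0.39 at 8 months (-0.03 on replicates 3 and 4). Of its 3 probes, those with values on all arrays were at 0.241 and 0.416 at 2 months. The other had values only with the female pool in Cy5 (0.094 and 0.208), so the Itpr2 values of the 2 dye orientations average unlike probes. Itpr3 was at 0.15 ± 0.07 and -0.18 ± 0.62, with 0.02 on replicates 3 and 4. Itprid2 was at 0.15 ± 0.03 and 0.06 ± 1.18, with -0.02 on replicates 3 and 4. All arrays of the 3 genes were above 0 at 2 months, and at 8 months each gene had arrays on both sides.

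Of the calcium pumps, Atp2a2 is the one that refills the store in heart muscle. Its ratios were 0.14, -0.28, -0.14 and -0.17 at 2 months and 0.20, -1.09, 1.23 and -1.33 at 8 months. At 8 months both arrays with the female pool in Cy3 were above 0 and both in Cy5 below, so the mean of -0.25 ± 1.19 (-0.05 on replicates 3 and 4) gives no direction; the 2-month mean was -0.11 ± 0.18. Atp2a1, the pump of fast skeletal muscle, had -0.45, -0.34, -0.49 and -0.33 at 2 months and -1.22, 0.27, -0.20 and -0.23 at 8 months. Its mean was -0.40 ± 0.08 at 2 months and -0.35 ± 0.62 at 8 months, or -0.22 on replicates 3 and 4, and 7 of 8 arrays were on the male side. Over both ages Atp2a1 was at -0.37 ± 0.12 (SE, n = 2 pool pairs; limma adjusted p = 0.414). Skeletal muscle markers in the same pools had medians of -0.036 and -0.084 (8 genes), or 0.046 on replicates 3 and 4. At 2 months these markers ranged from -0.577 to 0.225, and their part in the Atp2a1 ratio was not tested.

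Atp2a3, a pump best known from blood cells and endothelium, had 0.43, 0.54, -0.02 and 0.13 at 2 months and -0.47, -0.69, 0.05 and -0.08 at 8 months. The mean went from 0.27 ± 0.26 to -0.30 ± 0.34, but on replicates 3 and 4 it was at -0.02 at 8 months. Among the calcium-binding proteins of the store, Calr (calreticulin) was at -0.01 ± 0.06 and 0.17 ± 0.19, with 0.02 on replicates 3 and 4. Casq1, the calsequestrin of skeletal muscle, was at 0.10 ± 0.19 and -0.35 ± 0.51, with -0.13 on replicates 3 and 4. Neither met the size rule at an age.

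Slc8a1, the sodium-calcium exchanger that removes calcium from the muscle cell, had -0.29, -0.71, 0.21 and -0.81 at 2 months and 0.77, -1.54, 0.57 and 0.50 at 8 months. Replicate 2 was far below the other 8-month arrays, which were on the female side. The mean was -0.40 ± 0.47 at 2 months and 0.07 ± 1.08 at 8 months, or 0.53 on replicates 3 and 4. The size at 8 months thus depended on 1 array that carries the trend, and the arrays of the 2 ages overlapped.

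Among the TRP channels, Trpm7, a magnesium and calcium channel with a kinase domain, was higher in the female pool at 2 months and lower at 8. Its ratios were 0.20, 0.48, 0.05 and 0.46 at 2 months and -0.04, -0.22, -0.27 and -0.10 at 8 months. Trpm1, a channel of retina and melanocytes, did the opposite, with -0.34, -0.18, -0.13 and -0.13 and then 0.80, 0.47, 0.13 and 0.03. Such a change of sign on all arrays was found in these 2 members and in 1.72% of all rows. The means were 0.30 ± 0.21 and -0.16 ± 0.11 for Trpm7 and -0.20 ± 0.10 and 0.36 ± 0.35 for Trpm1, with -0.19 for Trpm7 and 0.08 for Trpm1 on replicates 3 and 4. Trpv2, a cation channel of macrophages and muscle, had 0.23, 0.28, 0.24 and 0.32 at 2 months, a mean of 0.27 ± 0.04, and was at 0.16 ± 0.68 at 8 months (-0.09 on replicates 3 and 4). The chloride-proton exchangers of endosomes and lysosomes were close to equal, Clcn3 at -0.10 ± 0.18 and -0.06 ± 0.33 and Clcn7 at -0.15 ± 0.15 and -0.04 ± 0.14. On replicates 3 and 4 they were at 0.04 and -0.14.

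Of the gap junction genes, Gja4, the connexin of arterial endothelium, was lower in the female pool on 7 of 8 arrays. Its ratios were 0.08, -0.33, -0.14 and -0.69 at 2 months and -0.09, -0.99, -0.24 and -0.29 at 8 months. The ages overlapped, and the arrays with the female pool in Cy5 were lower at both. The mean was -0.27 ± 0.33 at 2 months and -0.40 ± 0.40 at 8 months (-0.27 on replicates 3 and 4), with -0.34 ± 0.13 over both ages (SE, n = 2 pool pairs; limma adjusted p = 0.458). Endothelial markers had medians of -0.321 and -0.372 (6 genes; -0.243 on replicates 3 and 4) in the same pools, and their part in the Gja4 ratio was not tested.

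The beta connexins are genes of epithelia, liver and skin. Gjb5 was equal between the sexes at 2 months, with 0.01, 0.02, 0.12 and 0.09, and had -1.05, 1.45, 1.24 and 0.39 at 8 months. All 8-month arrays but replicate 1 were on the female side and above the 2-month range. The mean was 0.06 ± 0.06 at 2 months and 0.51 ± 1.13 at 8 months, and 0.81, or 1.76-fold, on replicates 3 and 4. Gjb2 was at 0.16 ± 0.20 and 0.24 ± 0.69, with -0.07 on replicates 3 and 4. Gjb1, which is X-linked, was at -0.09 ± 0.16 and -0.18 ± 0.65, with 0.03 on replicates 3 and 4. Neither X-linked member, Gjb1 or Kcne1l, was listed at an age.

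**Figure D3:**
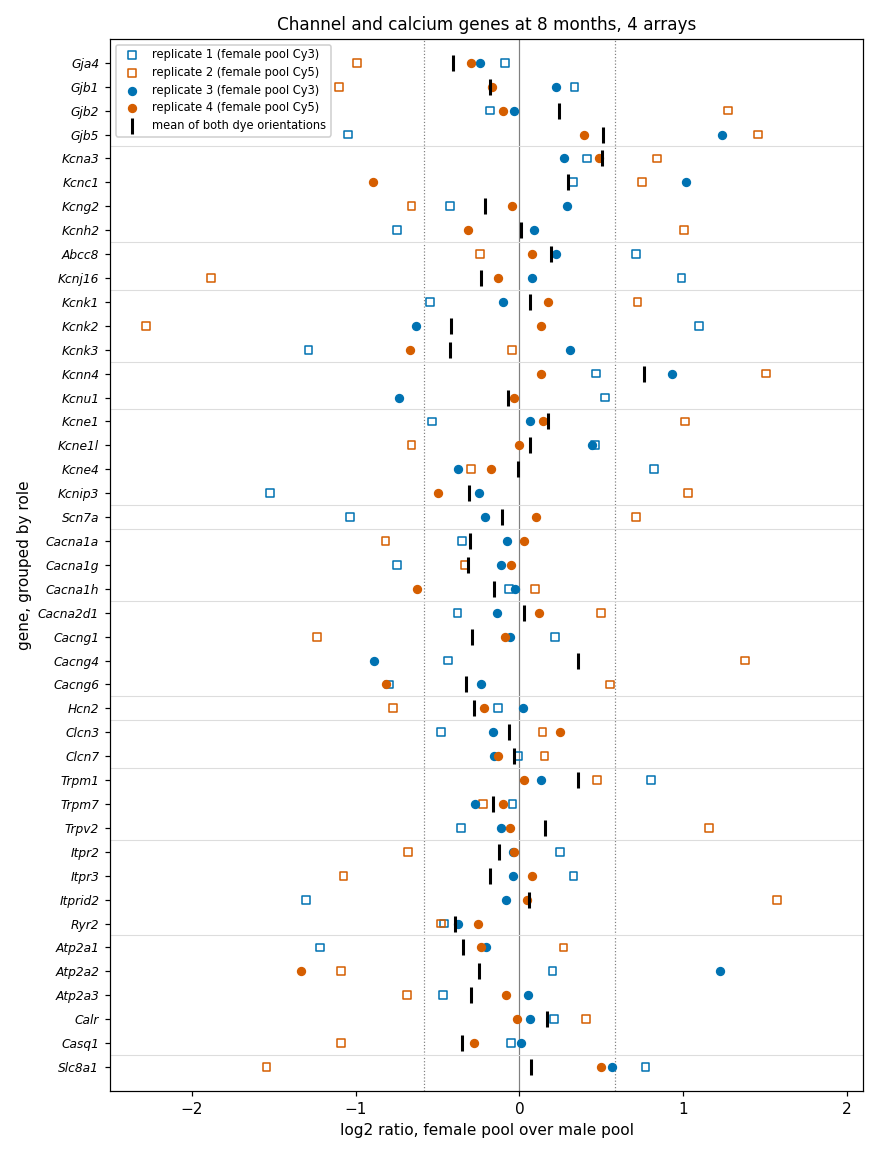
Log2 ratio of female over male for each analysed member at 8 months, drawn as for 2 months, with replicates 1 and 2, which carry the trend along the feature number, marked apart from replicates 3 and 4. Kcnn4 is above 0 on all arrays (0.13 to 1.503), and most other members have arrays on both sides of 0.

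The sex ratio of most members was similar at both ages within the array spread. An age difference was listed when it reached 1.5-fold and the arrays of the 2 ages did not overlap. In 1 member, Kcna3, the ratio was lower at 8 than at 2 months (1.72% of all rows), by -0.97, and in 0 members it was higher at 8 months (1.57% of all rows). Kcnn4 differed by -0.49 with overlapping arrays. With replicates 3 and 4 for 8 months both genes met the rule on the lower side (2.71% of all rows) and Gjb5 and Slc8a1 on the higher side (3.32%). No test across animals exists for these differences, since each age has 1 pool per sex. The median member differed by -0.109 between ages, beside -0.019 over all rows.

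**Figure D4:**
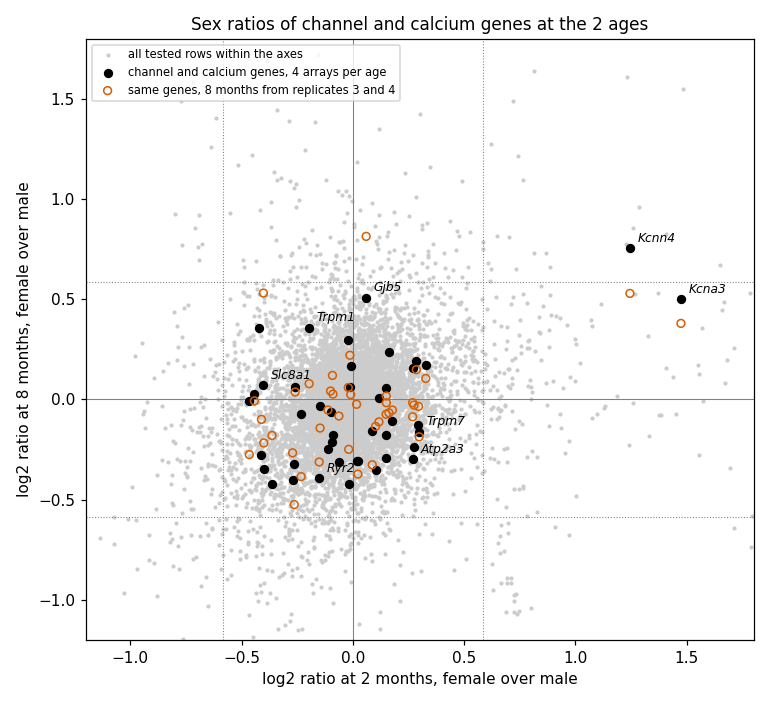
Mean log2 ratio of female over male at 8 months (vertical axis) against 2 months (horizontal axis) for each of the 43 members (black), over all tested rows within the axes (grey); open circles take the 8-month value from replicates 3 and 4, and dotted lines mark 1.5-fold. Kcna3 (1.47, 0.50) and Kcnn4 (1.24, 0.76) lie to the right of all other members, which, with all arrays, lie within 1.5-fold of 0 on both axes.

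Most genes that regulate calcium handling also differed little between the pools. Of 68 such genes (kinases, phosphatases, calmodulins, junction and buffer proteins) 32 were analysed. Their median was -0.109 at 2 months, with 10 above 0, and -0.097 at 8 months, with 9 above 0, or -0.059 on replicates 3 and 4. None was listed at 2 months, where 2.41% of all rows were higher and 1.77% lower. At 8 months 1 was listed as lower (1.31% of all rows) and 0 as higher, and 0 passed the limma test over both ages (0.0896% of all rows). The listed gene was Camk2b, a calcium-calmodulin kinase subunit, at -0.776 and at -0.440 on replicates 3 and 4. It was also the 1 gene of this list whose ratio was listed as lower at 8 than at 2 months (1.72% of all rows), by -0.65. Its 2-month mean was -0.13, and its 8-month arrays were -1.15, -1.08, -0.24 and -0.64. With replicates 3 and 4 alone Camk2b met neither rule. Prkar2a, a regulatory subunit of protein kinase A, was at -0.80 ± 0.99 and -0.61 ± 0.53 (SD, n = 4 arrays), with -0.28 on replicates 3 and 4. At 2 months it was at 0.05 with the female pool in Cy3 and -1.64 in Cy5. The catalytic subunit Prkaca was at -0.40 ± 0.70 and -0.53 ± 0.48, with -0.33 on replicates 3 and 4. At 2 months it was at 0.17 in Cy3 and -0.97 in Cy5. Neither met the rule at an age. Camk2d, the main calcium-calmodulin kinase of the heart, was at -0.57 ± 0.28 and -0.28 ± 0.88, with -0.08 on replicates 3 and 4. Other regulators lay on the female side. Ppp1r1a was at 0.56 ± 0.22 at 2 months, from 0.27 to 0.80 over the arrays. At 8 months it was at 0.11 ± 0.31, or 0.14 on replicates 3 and 4. Fgf12 was at 0.02 ± 0.33 and 0.70 ± 1.23, with 2.51 on replicate 2 at 8 months and a mean of 0.27 on replicates 3 and 4.

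The 5 members not analysed lacked values at 8 months, or at both ages. Scn8a and Scn9a, sodium channels of neurons, had 2-month means of -0.12 ± 0.27 and 0.11 ± 0.10, and Kcnip4, a partner of potassium channels, had 3 values there with both signs (0.58, 0.67 and -0.40). Gjb6 had 2 values at 2 months, -0.01 and 0.07. Kcnq1 is described above. Of a set of 42 well-known cardiac channel and calcium genes, 14 were members and 13 were analysed; the others, among them Cacna1c, Gja1 and Pln, were not analysed here.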

How the data were processed

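Female and male heart pools were compared on 8 arrays. The deposited values are log10 ratios of Cy5 over Cy3 from Agilent Feature Extraction 7.1.1, per the labels. What else the authors did to normalize them is not stated in the labels. They are limited at 100-fold, and an exact 0 was taken as missing. Values were put on the log2 scale, with the sign set so that female over male is positive; Xist, Kdm5d and Eif2s3y had the right sign on all 8 arrays. The number of arrays limits the precision, and no intensities were given. Gene names came from GEO's platform annotation, with symbols brought up to date by gene ID in RefSeq (GRCm38.p6): of 9607 rows 6671 had 1 symbol (6600 matched), 400 several and 2536 none. Rows of 1 symbol were averaged per array. A row was tested with values on at least 3 of 4 arrays per age in both dye orientations (7812 rows).

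limma 3.58.1 in R 4.3.3 (lmFit, eBayes, two-sided, Benjamini-Hochberg over all rows) was run on the 2 age means, since arrays of an age share their pools, and its script was tested on simulated data. Size rules, named with their thresholds in the text, served within an age. Members, lists and tests were chosen with earlier results of these data known. The rule named every listed or called member, the 3 largest per role over both ages, and measured members of the set of known cardiac genes; Kcne1l, Cacng4, Itpr3, Atp2a3, Gjb1 and the members not analysed were named after their values were seen, to account for all members, as were the named regulators. Alternatives were other scaling and centring, the trend removed, zeros kept, other filters, sizes, names and probe handling, single-array fits and each array left out. Among cell type lists not named in the text, smooth muscle markers had medians of -0.129 and -0.220 at 2 and 8 months (9 genes) and neuron markers -0.024 and -0.235 (6). Fibroblast markers had -0.153 and 0.030 (6) and atrial markers 0.267 and -0.202 (2). On replicates 3 and 4 the 8-month medians were -0.264 for smooth muscle, 0.045 for neuron, 0.039 for fibroblast and -0.083 for atrial markers. Promoter windows matched 36 of the 48 members.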

Additional observations from a re-analysis of the deposited data

Results flagged for a closer look

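In 5 of 84 sets of 4 arrays (1 gene at 1 age), 1 array lay far from the other 3 by Dixon's criterion. Arrays of equal spread would give about 1 in 20 by chance. The interquartile range at 8 months was 1.18 and 1.56 on replicates 1 and 2 and 0.30 and 0.38 on replicates 3 and 4. That rate therefore does not hold for the 8-month sets. At 2 months the arrays set apart were Gjb1 on replicate 3 at 0.15 and Kcnh2 on replicate 2 at -0.087. At 8 months they were Gjb2 on replicate 2 at 1.271, Kcne4 on replicate 1 at 0.82 and Slc8a1 on replicate 2 at -1.544. All 3 at 8 months were on replicates 1 or 2, which carry the trend along the feature number. Without these arrays, on replicates 3 and 4, Gjb2 was at -0.07, Kcne4 at -0.28 and Slc8a1 at 0.53.

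For 2 genes every array of 1 age lay on the opposite side of 0 from every array of the other age, as in 1.72% of all rows. Trpm1 was higher at 8 months by 0.555 and Trpm7 differed by -0.458. On replicates 3 and 4 their 8-month means were 0.08 and -0.19. These differences between ages were not tested, since each age has 1 pool per sex.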

How the results depend on the processing

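Kcna3 and Kcnn4 were listed as higher in females at 2 months under every alternative, so that the count of 2 held throughout, or 3 probes where probes were kept apart. The 8-month count of 1 was 0 with arrays scaled to 1 interquartile range, with the running median subtracted or at 2-fold, 2 with no filter on missing values (Kcnq1 added) or with separate probes, and 0 to 4 with 1 array left out. Members lower at 8 than at 2 months numbered 2 with replicates 3 and 4 or with the running median subtracted, 0 at 2-fold and 1 to 3 with 1 array left out. Members higher at 8 months than at 2 numbered 2 with replicates 3 and 4, 1 with no filter and 0 to 3 with 1 array left out. With 1 array left out, members listed as lower numbered 0 to 1 at 2 months (Cacng4 or Kcne4) and 0 to 2 at 8 months (Cacng6 and Kcnip3, or Kcnk3). Over both ages 0 to 2 members were called with 1 array left out: without replicate 1 or replicate 4 at 8 months Kcna3 (limma adjusted p = 0.0196 and 0.00415) and Kcnn4 (0.00315 and 0.000417) passed, as did 88 and 105 rows in all. Over the other alternatives on age means the limma adjusted p was 0.28 to 0.644 for Kcna3 and 0.159 to 0.644 for Kcnn4. Counting arrays as replicates, 1 member, Kcnn4, was called with no replicate block (limma adjusted p = 0.024) and 0 with the replicate block (0.0523); such p-values measure technical spread. Arrays with the same number, which share the dye orientation, did not deviate together at both ages for all numbers (correlations -0.16, -0.102, 0.543 and 0.549). Arrays of unlike number but the same dye had 0.566 and 0.573 with replicates 3 and 4 at 8 months. With replicates 1 and 2 at 8 months they had -0.024 and -0.043. The number was therefore not taken as a pairing. The median member at 2 months was -0.013 and ranged from -0.071 to 0.037 with 1 array left out, so its sign is not settled. At 8 months it was -0.052 with replicates 3 and 4 (43 members, Scn8a in and Cacng4 out), -0.048 scaled, -0.054 with zeros kept and -0.093 to -0.023 with 1 array left out. Over both ages it was -0.004 with replicates 3 and 4. The cause of these shifts was not tested.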
